A study of Glycine max with 12 samples.

Results

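Leaf ageing in wild type soybean was followed by comparing BR16 leaves at R6, 80 days after germination, with BR16 leaves at V3, 20 days after germination. BR16 is a conventional soybean cultivar, V3 is a vegetative stage with young growing leaves, and R6 is the full seed stage, when the pods fill and leaves begin to senesce. The comparison uses 6 of the 12 libraries of the series, 3 of BR16 at R6 and 3 of BR16 at V3, which carry no transgene. The other 6 come from GmNAC81-3, a single transgenic line of the same cultivar in which the 35S promoter drives the transcription factor gene GmNAC81, again 3 at R6 and 3 at V3. They entered the choice of loci to test, the scaling of the libraries and the estimate of spread. Otherwise they are used only for a side by side count and a test of the difference between the stage changes of the genotypes. The material was discs of the third leaf, taken from 3 plants of each genotype and stage. The hour of the day at which the discs were cut is not given in the sources used here. Reads had been counted per transcript model, and the counts were summed for each Glyma locus, giving 52660 loci of which 39443 had enough counts to be tested. Levels are given as CPM (counts per 1e6 counts of the scaled library), which can be compared between stages of a locus and not between loci, since they are not divided by length.

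Leaf senescence is an ordered programme in which a mature leaf gives up its nutrients to growing organs, in soybean above all to the filling seed. Chloroplasts are taken apart early, the nitrogen bound in Rubisco and other photosynthetic proteins is turned into amino acids such as glutamine and exported, and the cells die at the end. The programme is set by age and by hormones, with ethylene, jasmonate, abscisic acid and salicylic acid known to promote it and cytokinin to delay it, and transcription factors of the NAC and WRKY families carry much of its control. In Arabidopsis and in soybean, vacuolar processing enzymes, proteases with caspase-1-like activity, take part in the cell death.

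The libraries held 60645974 to 77952663 counts at R6 and 51908861 to 60500341 at V3. Pearson's correlation of log2 CPM lay between 0.961 and 0.982 among the R6 libraries, between 0.923 and 0.971 among the V3 libraries and between 0.681 and 0.791 across the stages. The R6 libraries varied less among themselves, with a median coefficient of variation of 0.124 at R6 and 0.171 at V3 over loci above 1 CPM at both stages. R6 replicate 2 stood apart from its group at a set of loci, lying more than 5 times below both others at 192 loci. At V3, replicate 1 lay more than 5 times below both others at 355 loci and above them at 73, and replicate 2 lay more than 5 times above both others at 72 loci. Where one of these libraries carries a result named here, its value is given. Sequencing was done separately for the 2 stages, and in every value that follows the stage cannot be told apart from the sequencing set. The labels do not tie a library to a plant, and p-values measure only the spread between these libraries.

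In BR16 leaves 5945 loci were higher and 7731 were lower at R6 than at V3, where a call needed a log2 fold change beyond 1 in either direction and an adjusted p under 0.05 (edgeR's quasi-likelihood test, Benjamini-Hochberg adjustment over all tested loci). That is 15.1% of the tested loci called higher and 19.6% called lower, or 34.7% called either way, and these shares are the background for every group of genes below. The decreases were also larger. The median log2 fold change was 2.07 among loci called higher and -2.43 among loci called lower, and 678 loci were higher by more than 4 on the log2 scale while 1822 were lower by more than 4. Among the loci called lower, 691 had no more than 3 counts in any R6 library, and among those called higher 252 had no more than 3 counts in any V3 library. The R6 and V3 libraries did not overlap at 60.2% of all tested loci. The changes are relative to the scaling of the libraries, which sets the median over all tested loci near 0 (here -0.01 on the log2 scale). In bulk leaf samples, fewer cells of a type and less RNA per cell cannot be told apart.

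**Figure D1:**
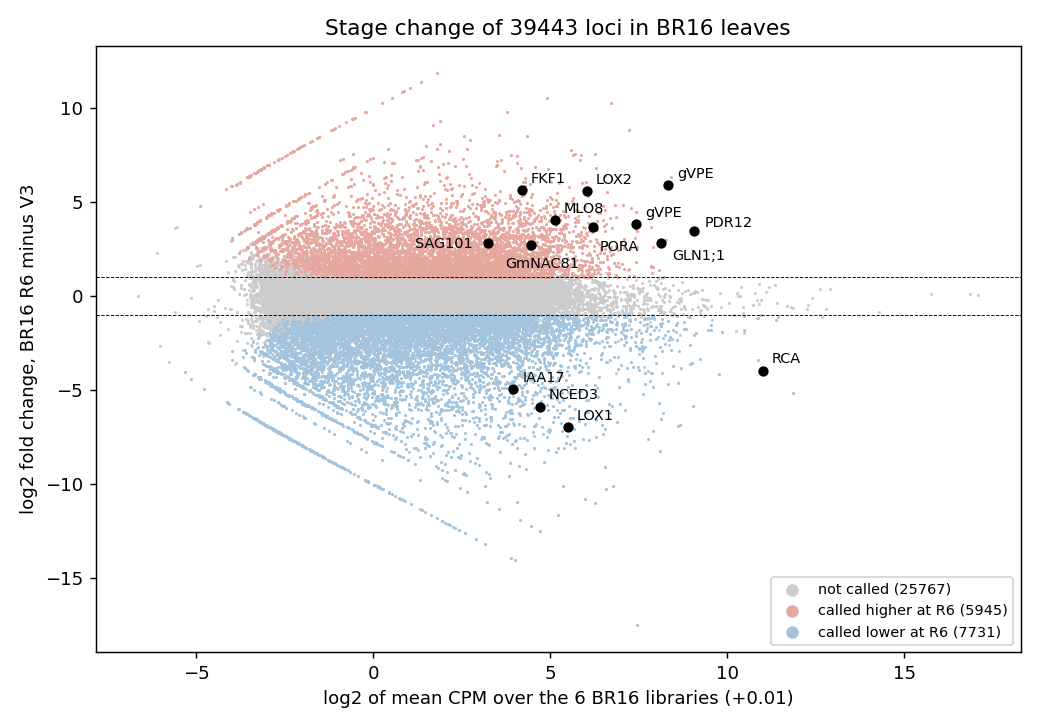
Log2 fold change of BR16 R6 over BR16 V3 (vertical axis) against log2 of the mean CPM over the 6 BR16 libraries (horizontal axis) for the 39443 tested loci, 1 point each. Red points are the 5945 loci called higher at R6, blue points the 7731 called lower, grey points the loci not called, black points are loci named in the text, and the dashed lines mark a log2 fold change of 1 and of -1.

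The change moved a large part of the sequenced RNA. Loci called higher at R6 held 12.8% ± 3.53 of all counts at R6 and 2.47% ± 0.84 at V3, and loci called lower held 5.14% ± 0.30 at R6 and 21% ± 1.55 at V3 (SD, n = 3 each). The most abundant loci took little part in it. The 3 loci with most counts held 41.1% ± 5.6 of the library at R6 and 35.5% ± 3.19 at V3 (SD, n = 3 each). R6 replicate 2 held 47.6%, while the other R6 libraries, at 38.3% and 37.5%, lay within the V3 libraries, which ran from 32.1% to 38.5%. None of the 3 loci was called, with log2 fold changes between 0.04 and 0.11. Of the 100 loci with most counts at one stage, 64 were also among the 100 of the other.

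Gene names below are those the study's supplementary tables or text give to 397 loci, and 394 of these were tested. The names in the tables follow the best Arabidopsis match. The tables list loci that the study selected as differing between GmNAC81-3 and BR16 at V3, so they share the BR16 V3 libraries with the present comparison and are not independent evidence of any direction. Loci of KIN10, NRT1.5, MLO3, JMT, KTI1 and SPI were moreover picked by the study as examples that also changed with age in these samples. GmNAC81 and the gamma-VPE locus Glyma.04G049900 come from the study's text, which gives both as higher with age in these samples. Of the 394, 87 were called higher and 102 lower at R6. The 285 loci with a name of known role were sorted into 20 groups. The members differed widely, and paralogues under a single name often went opposite ways, so that each group is described by its members. Soybean has many near-identical gene copies, between which reads can be split, and values of close copies are uncertain for that reason.

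**Figure D2:**
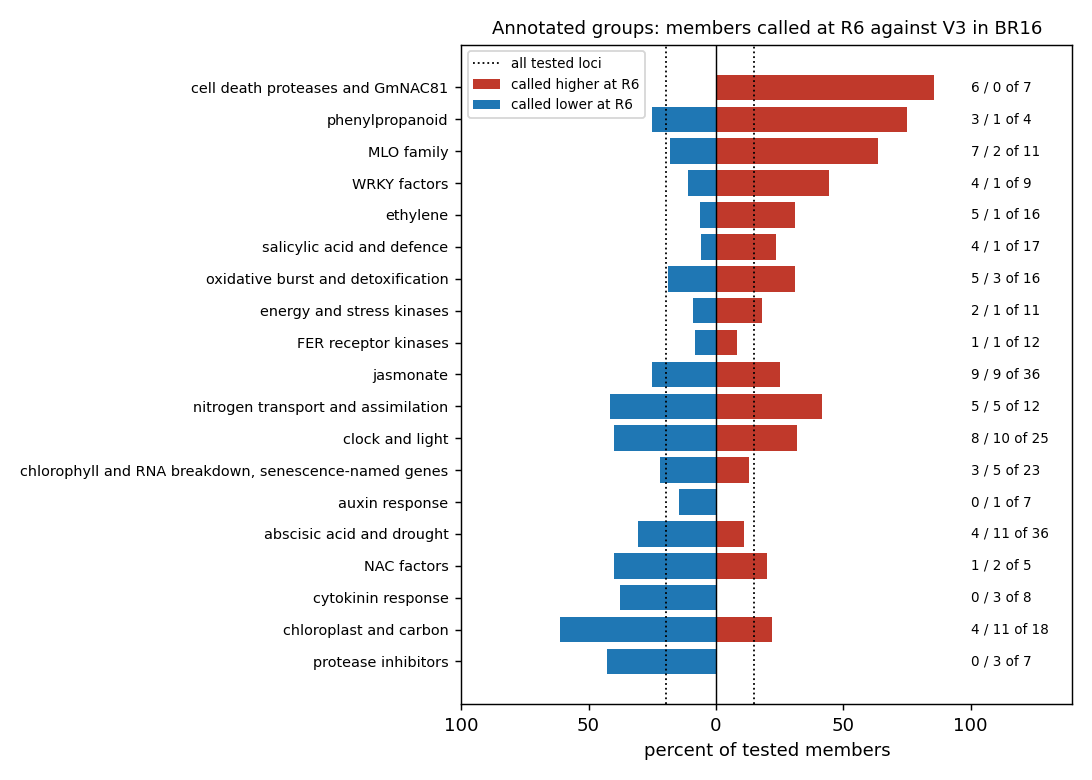
Share of the tested members of each group, DNA synthesis left out, that were called higher (red, to the right) or lower (blue, to the left) at R6 in BR16, in percent. The dotted lines mark the shares over all tested loci, 15.1% higher and 19.6% lower, and the numbers at the right give members called higher, called lower and tested, from 6 / 0 of 7 for cell death proteases and GmNAC81 to 0 / 3 of 7 for protease inhibitors.

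Of 7 tested members of the group of cell death proteases, which includes GmNAC81, 6 were called higher at R6 and 0 lower, and the median log2 fold change was 2.29. The study had already given GmNAC81 and gamma-VPE as higher with age in these samples. GmNAC81 and the gamma-VPE locus Glyma.04G049900 entered the group from that text, so the count is not independent of the present comparison. The gamma-VPE locus Glyma.17G230700 had 733, 529.8 and 645 CPM at R6, against 10, 13.1 and 8.73 CPM at V3. The mean was 59.8 times that at V3, and the stages did not overlap (log2 fold change 5.90, SE 0.83, edgeR adjusted p = 0.000198). A second gamma-VPE locus, Glyma.14G092800, had 297, 341 and 322 CPM at R6, against 16.6, 34.1 and 17.6 CPM at V3, which again left the stages apart (log2 fold change 3.81, SE 0.64, edgeR adjusted p = 0.00062). The third, Glyma.04G049900, and the beta-VPE locus Glyma.05G055700 were higher by 1.35 and 2.29 on the log2 scale. One of the 2 matrix metalloproteinase loci, Glyma.08G292300, rose as well, by 1.68, and the other, Glyma.09G065900, had 4.99, 5.49 and 4.72 CPM at R6, against 3.11, 3.09 and 2.85 CPM at V3 and was not called. GmNAC81 itself, a NAC factor placed upstream of the VPE genes in soybean, was higher by 2.72 (SE 0.66, edgeR adjusted p = 0.00578). Its lowest R6 library was replicate 2, with 11.3 CPM against 60.7 and 41.9 CPM in the other R6 libraries and 3.58 to 7.26 CPM at V3. The level sums the locus with an entry for the transgene terminator. Although BR16 carries no transgene, that entry held counts in every BR16 library, at 50.3% to 55.6% of the counts of the locus model. The source of these counts was not tested. Without the entry, an alternative chosen after seeing the data, the change was 2.71 (SE 0.63, edgeR adjusted p = 0.00466).

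**Figure D3:**
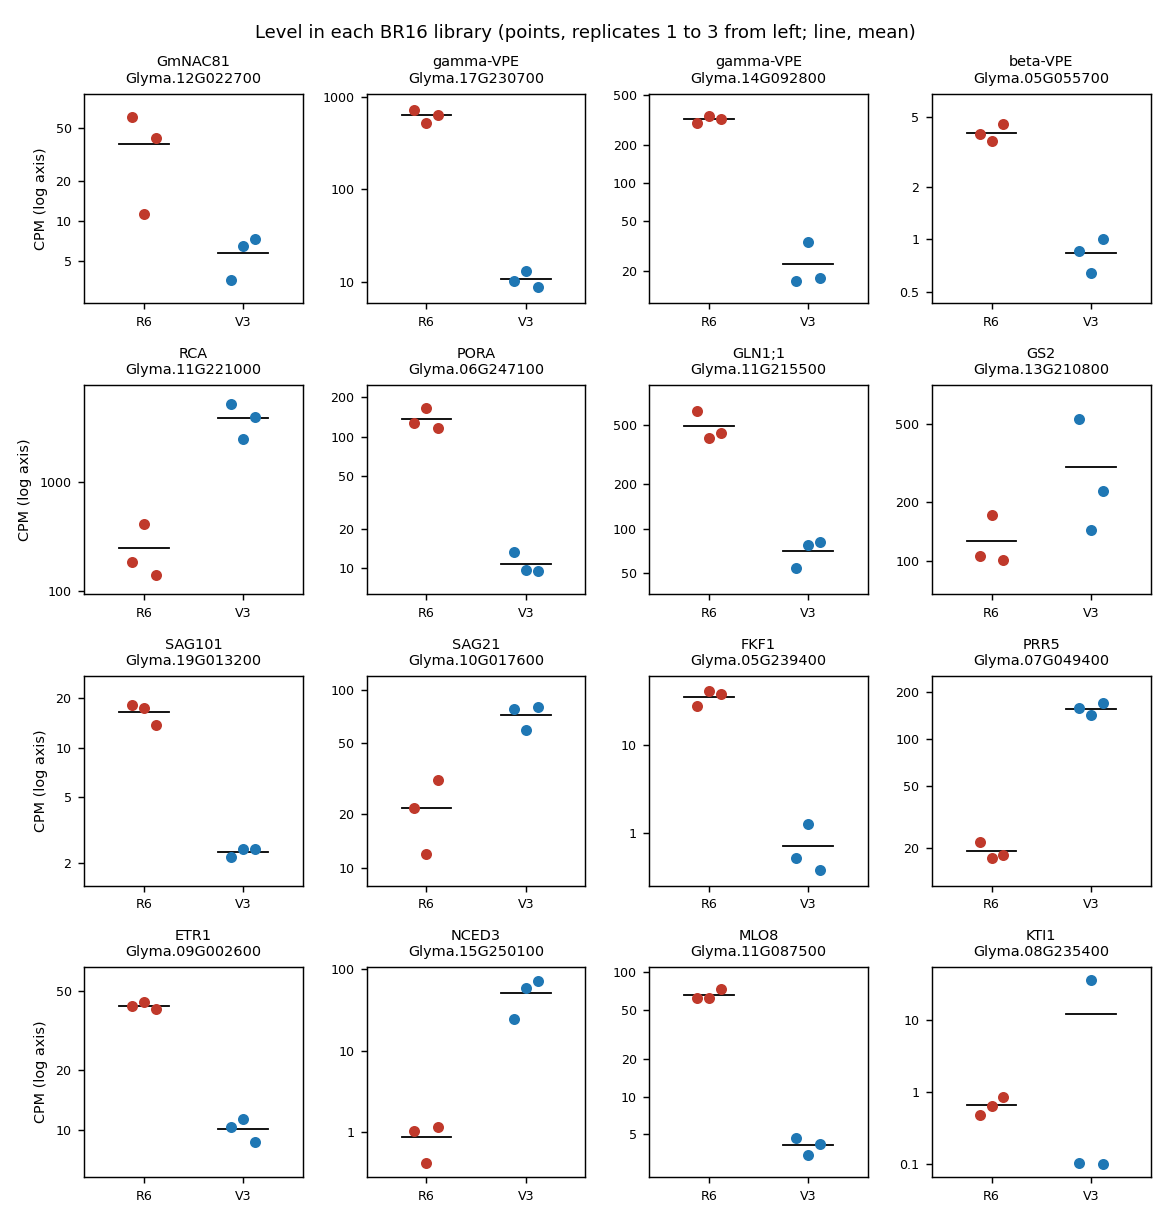
CPM in each BR16 library (vertical axis, logarithmic) for 16 loci named in the text, R6 (red) left of V3 (blue). Points are libraries, replicates 1 to 3 from left to right, and the line is the mean. The 3 libraries of each stage stay apart for 14 of the loci, R6 replicate 2 is the lowest R6 library for GmNAC81, GS2 (Glyma.13G210800) overlaps, and the V3 mean of KTI1 rests on replicate 2 alone.

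Genes of the chloroplast and of carbon metabolism fell for the most part, with 11 of 18 called lower and 4 higher and a median log2 fold change of -1.93. All 4 loci of Rubisco activase (RCA), the enzyme that keeps Rubisco in its active form, fell. Glyma.11G221000, the most abundant, had 185, 418 and 140.4 CPM at R6, against 5238, 2471 and 3936 CPM at V3. Every R6 library was below every V3 library (log2 fold change -3.97, SE 0.50, edgeR adjusted p = 9.32e-05). Glyma.18G036400 had 236, 573 and 155 CPM at R6, against 4670, 2102 and 3584 CPM at V3 and Glyma.14G067000 had 41.6, 40.5 and 34.8 CPM at R6, against 318, 212 and 266 CPM at V3. The 4 log2 fold changes ran from -3.97 to -2.30. The summed level of the 18 loci was 1342 to 2537 CPM at R6 and 6678 to 13790 CPM at V3.

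Other chloroplast genes fell as well. CSP41B, a chloroplast RNA-binding protein in Arabidopsis, was lower at both loci (log2 fold change -2.56 at Glyma.03G230000 and -1.85 at Glyma.19G227700). Both loci of STN7, the thylakoid kinase that sets the balance of light harvesting between the photosystems, were lower (-2.69 at Glyma.01G087900 and -2.13 at Glyma.02G100000). The GATA factors GNC and GATA22, which promote greening in Arabidopsis, were lower at all 3 loci. For GNC, Glyma.17G055200 had 0.453, 0.927 and 0.554 CPM at R6, against 15.5, 6.21 and 12.2 CPM at V3 (log2 fold change -4.14, SE 0.60, edgeR adjusted p = 0.00023).

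A few members of the group went the other way. PORA, a protochlorophyllide oxidoreductase and so an enzyme of chlorophyll synthesis, had 126, 166 and 116 CPM at R6, against 13.3, 9.77 and 9.48 CPM at V3 at Glyma.06G247100. All 3 R6 libraries lay above all 3 V3 libraries (log2 fold change 3.65, SE 0.65, edgeR adjusted p = 0.000968). PEPCK, phosphoenolpyruvate carboxykinase, which makes sugar precursors from organic acids, had 35.5, 22.6 and 27.9 CPM at R6, against 11.6, 10.7 and 9.97 CPM at V3 at Glyma.09G203500 and also rose (log2 fold change 1.42, SE 0.22, edgeR adjusted p = 0.000416). Formate dehydrogenase (FDH, Glyma.19G009100) was higher by 2.01. PHB3, a mitochondrial prohibitin, was higher by 1.18 at Glyma.06G317500 (edgeR adjusted p = 0.0378), a call lost in 6 of 17 alternative fits, with an adjusted p of up to 0.118. The 2 STM loci, named for the serine hydroxymethyltransferase of photorespiration, were not called, with log2 fold changes of -0.61 at Glyma.08G274400 and -0.92 at Glyma.18G150000.

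The nitrogen genes were divided, 5 of 12 called higher and 5 lower. Glutamine synthetase makes glutamine from ammonium, the cytosolic form GLN1;1 for export of nitrogen and the plastid form GS2 for photorespiration. Both GLN1;1 loci rose. Glyma.11G215500 had 627, 408 and 441 CPM at R6, against 53.8, 77.8 and 81.6 CPM at V3, with the stages well apart (log2 fold change 2.79, SE 0.46, edgeR adjusted p = 0.000527), and Glyma.02G244000 was higher by 2.46. Of the 3 GS2 loci, Glyma.12G109200 fell by 1.82 on the log2 scale (edgeR adjusted p = 0.00466). Glyma.15G102000 had a log2 fold change of -1.19 (edgeR adjusted p = 0.0457), a call lost in 12 of 18 alternative fits, with an adjusted p of up to 0.257. The most abundant GS2 locus, Glyma.13G210800, had 106, 172 and 101 CPM at R6, against 531, 145 and 229 CPM at V3. The stages overlapped there, V3 replicate 2 lying within the R6 libraries, and the locus was not called (log2 fold change -1.25, SE 0.48, edgeR adjusted p = 0.0548).

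The transporters of the same group were divided. NRT1.5 loads nitrate into the xylem in Arabidopsis, and 2 of its 4 loci were higher and 2 lower. Glyma.18G260000 had 0.977, 1.55 and 1.15 CPM at R6, against 0.102, 0.54 and 0.294 CPM at V3, and Glyma.09G237600 had 1.35, 1.69 and 1.39 CPM at R6, against 0.0683, 0.103 and 0.0981 CPM at V3. At both, every R6 library was above every V3 library, with log2 fold changes of 1.94 and 4.0, and the first call was lost without V3 replicate 3 (edgeR adjusted p = 0.0509). DESeq2 gave no adjusted p for the second. Glyma.05G070600 fell by 2.99 on the log2 scale (edgeR adjusted p = 0.000218). Glyma.17G153300 had a log2 fold change of -1.62 (edgeR adjusted p = 0.0383), a call lost in 6 of 18 alternative fits, with an adjusted p of up to 0.121. Of 3 loci of PTR3, a peptide transporter, Glyma.10G183900 was higher by 1.09, which came to 0.97 without V3 replicate 3 and 0.997 without R6 replicate 3 and so missed the fold limit in both. Glyma.10G005300 fell by 4.19, and the third PTR3 locus was not called. The number of nitrogen loci called lower was 3 without V3 replicate 1 and 3 without R6 replicate 2.

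Of the genes named for senescence or for the breakdown of chlorophyll and RNA, 3 of 23 were called higher and 5 lower, or 13% and 21.7%, shares near those of all tested loci. Without V3 replicate 2, 3 were called lower. SAG101, a partner of the defence regulator EDS1 in Arabidopsis that was first found in senescing leaves, rose. It had 18.2, 17.4 and 13.8 CPM at R6, against 2.19, 2.42 and 2.42 CPM at V3 at Glyma.19G013200 (log2 fold change 2.81, SE 0.24, edgeR adjusted p = 6.02e-06). SAG21, a small late embryogenesis abundant protein, fell at both loci, and Glyma.10G017600 had 21.7, 11.9 and 30.9 CPM at R6, against 78.5, 59.1 and 79.8 CPM at V3 (log2 fold change -1.75, SE 0.39, edgeR adjusted p = 0.00345). Glyma.02G017100 fell by 1.53. The 6 SRG1 loci, which encode oxygenases first found in senescing Arabidopsis cultures, gave 2 called higher, 1 called lower and 3 not called. Glyma.01G068200, the lower one, had at most 2 counts in any R6 library and was at least 62.2-fold lower than at V3, taking 3 counts per R6 library as the floor.

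The enzymes of breakdown were mostly not called. The 2 loci of PAO, pheophorbide a oxygenase, which opens the chlorophyll ring, had log2 fold changes of -0.05 at Glyma.11G192300 and 0.16 at Glyma.12G082100 and were not called. The S-like RNase RNS2 (Glyma.07G059300) was not called either, at 0.17. RNS1 (Glyma.20G036100) had 0.142, 0.0818 and 0.115 CPM at R6, against 0.0683, 4.35 and 0.376 CPM at V3, where V3 replicate 2 was the highest library. The call at -3.79 (edgeR adjusted p = 0.0367) was lost without that library, at -0.95 (edgeR adjusted p = 0.525). It was lost in 6 of 17 alternative fits, among them each fit without an R6 library. The autophagy gene ATG2 had log2 fold changes of 0.38 at Glyma.02G133400 and 0.69 at Glyma.07G211600, and the ubiquitin ligases UPL5 and SAUL1 stayed below a log2 fold change of 1 in size at their 3 loci.

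Among WRKY factors 4 of 9 loci were called higher and 1 lower. All of those called higher were WRKY40, a defence and abscisic acid response factor in Arabidopsis whose 5 loci had log2 fold changes from 1.69 to 4.37. Glyma.14G102900 had 33.8, 26.9 and 18.1 CPM at R6, against 0.666, 1.39 and 2.85 CPM at V3, and the stages did not overlap (log2 fold change 4.01, SE 0.72, edgeR adjusted p = 0.00102). Glyma.06G061900 had 30.7, 4.68 and 32.9 CPM at R6, against 0.512, 4.8 and 5.13 CPM at V3, and the stages overlapped through R6 replicate 2 (log2 fold change 2.71, SE 0.86, edgeR adjusted p = 0.0239). Without R6 replicate 1 or replicate 3 the adjusted p (edgeR) was 0.0651 or 0.0715, and with the 6 BR16 libraries alone it was 0.0547. Glyma.13G370100 was not called (log2 fold change 1.69, SE 0.92, edgeR adjusted p = 0.157). Of the other 4 WRKY loci, WRKY22 (Glyma.16G031900) was called lower (log2 fold change -2.47, SE 0.88, edgeR adjusted p = 0.0396), a call lost in 8 of 17 alternative fits, with an adjusted p of up to 0.255, and WRKY4, WRKY20 and WRKY30 were not called.

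The ATAF1 loci, NAC factors of the stress-responsive branch, were divided. Glyma.06G157400 had 101, 23.4 and 76.8 CPM at R6, against 1.42, 7.78 and 5.3 CPM at V3 and rose (log2 fold change 3.79, SE 0.65, edgeR adjusted p = 0.000697). Glyma.14G152700 had 6.07, 4.43 and 5.13 CPM at R6, against 9.25, 10.9 and 13.2 CPM at V3 and fell (log2 fold change -1.09, SE 0.24, edgeR adjusted p = 0.00329), though it missed the fold limit without V3 replicate 3 or R6 replicate 2, at -0.94 and -0.96. Glyma.04G249000 fell by 1.67. NAP (Glyma.07G229100), a NAC factor that drives senescence in Arabidopsis, had 2.49, 2.18 and 3.55 CPM at R6, against 0.205, 2.42 and 0.834 CPM at V3. V3 replicate 2 lay within the R6 libraries, and the locus was not called (log2 fold change 1.23, SE 0.65, edgeR adjusted p = 0.144). The zinc finger repressor ZAT10 rose at both loci, and Glyma.04G044900 had 55.7, 14.1 and 52.5 CPM at R6, against 0.58, 3.19 and 2.36 CPM at V3 (log2 fold change 4.31, SE 0.64, edgeR adjusted p = 0.000288). Glyma.06G045400 was higher by 3.21.

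Ethylene genes were called higher at 5 of 16 loci and lower at 1, with a median log2 fold change of 0.75, and 7 were called higher without R6 replicate 2. The ethylene receptor ETR1 (Glyma.09G002600) had 42, 44 and 40.8 CPM at R6, against 10.3, 11.4 and 8.73 CPM at V3, a narrow spread at both stages (log2 fold change 2.06, SE 0.17, edgeR adjusted p = 4.69e-06). EBF1, the F-box protein that removes the ethylene factor EIN3, was higher at 2 of 4 loci. Glyma.13G166200 had 36.7, 24.9 and 34.6 CPM at R6, against 3.7, 6.33 and 5.66 CPM at V3 (log2 fold change 2.62, SE 0.32, edgeR adjusted p = 7.42e-05), and Glyma.14G116800 was higher by 1.20. CTR1, the kinase that holds ethylene signalling off, was higher at 1 of 3 loci (Glyma.13G151100, 1.21), and the other two had changes of 0.69 at Glyma.03G191000 and 0.62 at Glyma.10G066000. ACO4, ACC oxidase, which makes ethylene, was divided. Glyma.02G268000 was higher by 1.51, and Glyma.17G009800 had 0.0533, 0.0818 and 0 CPM at R6, against 1.83, 1.29 and 0.621 CPM at V3 and fell (log2 fold change -4.75, SE 1.05, edgeR adjusted p = 0.00343). EIN2 (Glyma.13G145100), the central transducer, had a log2 fold change of 0.32 and was not called.

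Jasmonate genes were balanced, with 9 of 36 called higher and 9 lower and a median of -0.13, and 6 called lower without V3 replicate 2. The lipoxygenases, which oxidise fatty acids at the start of the pathway, hold the extremes. Over the LOX1, LOX2 and LOX3 names, 4 of 14 loci were higher and 5 lower, between -6.98 and 5.54 on the log2 scale. LOX2 at Glyma.11G130300 had 119, 132 and 135 CPM at R6, against 3.86, 1.69 and 2.75 CPM at V3. The stages were far apart there (log2 fold change 5.54, SE 0.64, edgeR adjusted p = 5.22e-05), while its neighbour Glyma.11G130200 had 75.1, 96.7 and 77.3 CPM at R6, against 103, 73.6 and 110 CPM at V3 and was not called. LOX1 at Glyma.08G189600 had 0.0533, 1.8 and 0.0923 CPM at R6, against 15.6, 145 and 39.3 CPM at V3, with V3 replicate 2 the highest library (log2 fold change -6.72, SE 1.33, edgeR adjusted p = 0.0018). LOX1 at Glyma.07G034900 had 0.355, 1.45 and 0.369 CPM at R6, against 18.7, 207 and 44.3 CPM at V3 (log2 fold change -6.98, SE 1.07, edgeR adjusted p = 0.000343). Of the 5 LOX1 loci, named for an enzyme that in Arabidopsis acts at another carbon than the jasmonate-forming LOX2, 4 were lower and 1 higher. The lower call at LOX1 locus Glyma.13G347800 was lost in 4 of 18 alternative fits (edgeR adjusted p up to 0.0981). The higher call at LOX2 locus Glyma.13G030300 was lost in 2 of 18 (edgeR adjusted p up to 0.0679).

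Later steps of the pathway were divided as well. Higher were OPR2 (Glyma.01G235600, 2.69), an oxophytodienoate reductase, 1 of 3 loci of allene oxide synthase (AOS, Glyma.11G122700, 1.99), and ACX1 (Glyma.11G035200, 1.03), an acyl-CoA oxidase of the last steps that missed the fold limit without V3 replicate 3, at 0.95. JAR1, which joins jasmonate to isoleucine to make the active hormone, was higher by 1.57 at Glyma.16G026900 and fell by 1.28 at Glyma.07G057900. MYC2 (Glyma.08G271900), the main factor of jasmonate response, had 4.02, 3.59 and 3.89 CPM at R6, against 9.8, 12.5 and 11.5 CPM at V3 and fell (log2 fold change -1.56, SE 0.23, edgeR adjusted p = 0.000302). JMT (Glyma.14G072300), jasmonate methyltransferase, had 0.0355, 0.0273 and 0.0462 CPM at R6, against 0.239, 0.18 and 0.0654 CPM at V3. It was called lower (log2 fold change -2.09, SE 0.66, edgeR adjusted p = 0.0226), a call lost in 4 of 16 alternative fits, with an adjusted p of up to 0.0819. The call rests on few counts, at most 4 in an R6 library and 14 in a V3 library. The study itself gives this locus as higher with age in BR16, the opposite direction, and the reason was not tested.

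**Figure D4:**
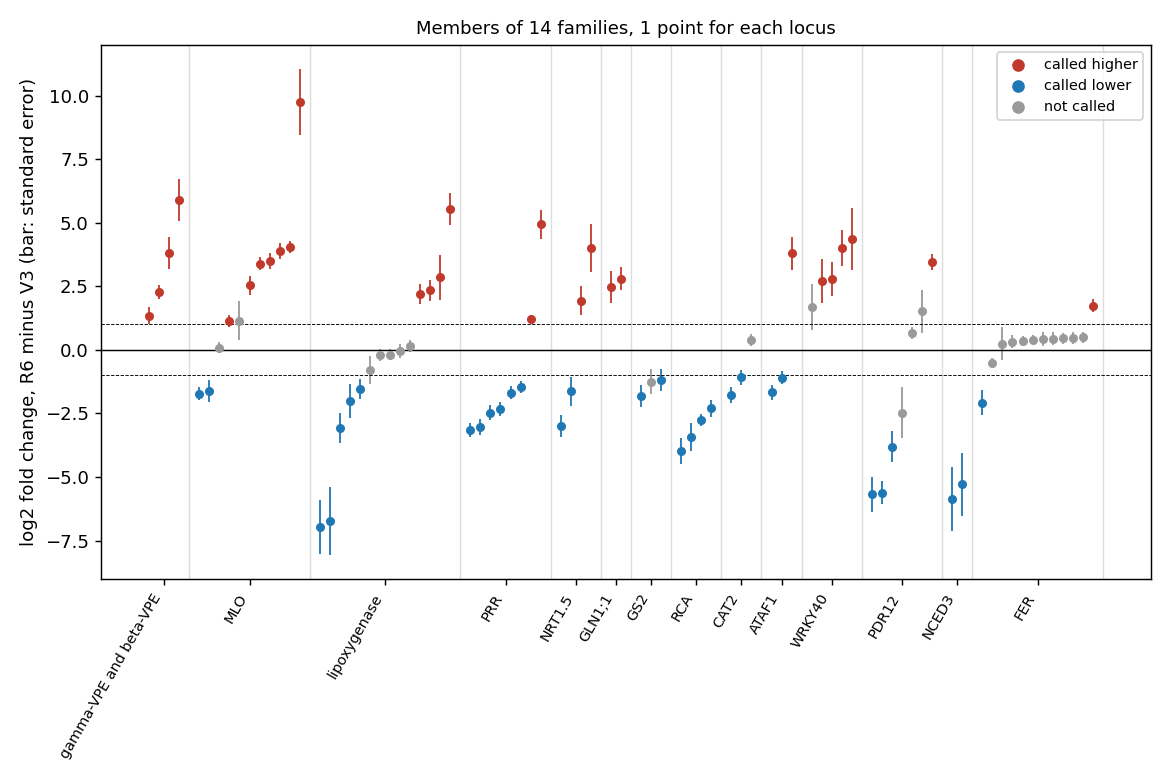
Log2 fold change of R6 over V3 in BR16 (vertical axis) for every tested locus of 14 named families (horizontal axis), 1 point per locus with its standard error as a bar. Red points were called higher, blue points lower and grey points not called, and dashed lines mark 1 and -1. The 4 RCA loci lie between -3.97 and -2.30 and the 5 WRKY40 loci between 1.69 and 4.37, the MLO, lipoxygenase, PRR, NRT1.5, ATAF1, PDR12 and FER families have members called on both sides, and the highest MLO point is the MLO3 locus without counts at V3, whose position depends on the prior count of the fit.

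The abscisic acid and drought genes were called lower at 11 of 36 loci and higher at 4, with a median of -0.30. That is 30.6% and 11.1%, beside 19.6% and 15.1% of all tested loci. The number called lower ran from 10 to 14 with a library left out, and from 4 to 14 over all fits at the same thresholds. Most of these genes come from a list of drought genes that the study set apart from those changing with age on these same samples. The count is therefore not independent of the present comparison. NCED3, the rate-limiting enzyme of abscisic acid synthesis, fell at both loci. Glyma.15G250100 had 1.03, 0.423 and 1.17 CPM at R6, against 24.6, 59.5 and 70.6 CPM at V3 (log2 fold change -5.87, SE 1.25, edgeR adjusted p = 0.00276), and Glyma.08G176300 fell by 5.29. GolS2, galactinol synthase, which makes protective sugars under drought, was lower at both loci as well (-5.64 at Glyma.19G227800 and -3.32 at Glyma.03G229800, the second -2.16 without V3 replicate 3). Glyma.19G227800 had 0.249, 0.382 and 1.04 CPM at R6, against 1.6, 41.4 and 40 CPM at V3, where replicate 1 lay close to the R6 libraries. The annexin ANNAT1 (Glyma.13G088700) had 1.84, 3.25 and 2.35 CPM at R6, against 50, 128 and 97.9 CPM at V3 (log2 fold change -5.21, SE 0.44, edgeR adjusted p = 6.43e-06). The aquaporin PIP1;4 (Glyma.05G208700) had no more than 2 counts in any R6 library and was at least 91.1-fold lower than at V3, against the floor of 3 counts per library.

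PDR12 names ABC transporters, one of which imports abscisic acid in Arabidopsis, and its 7 loci ran from -5.69 to 3.46. Glyma.13G361900 had 1001, 669 and 1257 CPM at R6, against 65, 104 and 96.8 CPM at V3. All 3 R6 libraries lay above the V3 libraries, replicate 2 the lowest of them (log2 fold change 3.46, SE 0.33, edgeR adjusted p = 1.36e-05). Glyma.14G127800 had 2.22, 1.49 and 0.842 CPM at R6, against 105, 47.7 and 70.5 CPM at V3 and fell (log2 fold change -5.61, SE 0.44, edgeR adjusted p = 4.1e-06). Its fellow Glyma.07G033500 fell by 5.69 on the log2 scale and Glyma.03G168200 by 3.81. The study describes PDR12 as repressed in GmNAC81-3 at V3 and not at R6. Its text names no locus for this, so it cannot be set against a single locus here. The study places GmERD15 upstream of GmNAC81 in a cell death pathway and gives it as higher with age in these samples. Its text names no locus for GmERD15. The locus named ERD15 in its drought list, Glyma.11G149900, had 21.8, 53.3 and 29.4 CPM at R6, against 1.95, 14 and 9.22 CPM at V3. This locus missed the threshold (log2 fold change 2.05, SE 0.79, edgeR adjusted p = 0.0532). Whether it is the GmERD15 of the study was not tested. Glyma.11G149900 was called higher in 7 of 18 alternative fits, with an adjusted p down to 0.0174 in DESeq2.

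MLO genes, which encode membrane-spanning proteins known from powdery mildew susceptibility, rose at 7 of 11 loci and fell at 2, with a median of 2.54. Glyma.11G087500, an MLO8 locus, had 62.8, 62 and 73.6 CPM at R6, against 4.63, 3.38 and 4.12 CPM at V3 (log2 fold change 4.03, SE 0.24, edgeR adjusted p = 9e-07). The 3 MLO6 loci were all higher, and Glyma.20G178800 had 35, 19.6 and 42.7 CPM at R6, against 2.49, 1.85 and 2.19 CPM at V3 (log2 fold change 3.90, SE 0.30, edgeR adjusted p = 3.78e-06). MLO3 at Glyma.19G179900 had 1.67, 1.65 and 1.73 CPM at R6, and no count in any V3 library. Against a floor of 3 counts per V3 library it was at least 36.4-fold higher. The lower members were the MLO8 loci Glyma.09G196800 (-1.60) and Glyma.16G111900 (-1.73).

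Genes of salicylic acid and defence were called higher at 4 of 17 loci and lower at 1, or 23.5% and 5.88%. Of all tested loci, 15.1% were called higher and 19.6% lower. PAD4, a lipase-like partner of EDS1 as SAG101 is, was higher at both loci. Glyma.06G156300 had 14.7, 14.3 and 10 CPM at R6, against 4.75, 3.55 and 4.02 CPM at V3 (log2 fold change 1.66, SE 0.29, edgeR adjusted p = 0.000812), and at Glyma.04G209700 the change of 1.16 was near the threshold (edgeR adjusted p = 0.0471), a call lost in 12 of 18 alternative fits, with an adjusted p of up to 0.144. PR4, a pathogenesis-related protein, was higher by 2.19 at Glyma.19G245400. HSPRO2 (Glyma.11G228100) was higher by 2.39. DMR6 at Glyma.18G273200, an oxygenase that breaks down salicylic acid in Arabidopsis, had 0.133, 0.109 and 0.658 CPM at R6, against 0.444, 10.2 and 2.42 CPM at V3, and its call at -3.86 (edgeR adjusted p = 0.00947) was lost without V3 replicate 2, at -2.25 (edgeR adjusted p = 0.059).

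The protease inhibitors rested on that same library. KTI1, a Kunitz trypsin inhibitor, had 0.48, 0.627 and 0.842 CPM at R6, against 0.102, 36.2 and 0.0981 CPM at V3 at Glyma.08G235400, so that only V3 replicate 2 was above the R6 libraries. The call was lower (log2 fold change -4.23, SE 1.58, edgeR adjusted p = 0.048), and without that library the locus was instead higher, by 2.67 (edgeR adjusted p = 0.00733). The serine protease inhibitor SPI at Glyma.10G184600 had 0.071, 0.109 and 0.323 CPM at R6, against 0, 18.2 and 0 CPM at V3, with the same reversal to 6.41 (edgeR adjusted p = 0.0301). At SPI locus Glyma.20G205800, called lower as well, the values were 0.24, 0.0545 and 0.265 CPM at R6, against 0.222, 53.4 and 0.213 CPM at V3, and the log2 fold change of -6.54 came to -0.20 without V3 replicate 2. The SPI locus Glyma.10G184700 had 0, 0.0273 and 0.0115 CPM at R6, against 0.0171, 8.3 and 0.0327 CPM at V3 and was too low to be tested. No direction can be given to this group, in which 0 of 7 tested loci separated the stages, beside 60.2% of all tested loci.

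Oxidative burst and detoxification genes were called higher at 5 of 16 loci and lower at 3. The number higher was 2 without V3 replicate 1 and 7 without V3 replicate 2. CAT2, the catalase of leaf peroxisomes that removes the hydrogen peroxide of photorespiration, fell at 2 of 3 loci. Glyma.06G017900 had 201, 289.9 and 136 CPM at R6, against 759, 617 and 754 CPM at V3 (log2 fold change -1.77, SE 0.32, edgeR adjusted p = 0.00108), and Glyma.04G017500 had a change of -1.07 that missed the threshold without V3 replicate 1 (-0.94) or R6 replicate 3 (-0.86). Among 5 GSTU7 loci, which encode glutathione transferases, 2 were higher, and Glyma.07G140000 had 16.1, 7.77 and 12.8 CPM at R6, against 0.717, 2.35 and 1.88 CPM at V3 (log2 fold change 2.88, SE 0.43, edgeR adjusted p = 0.000295). The other was Glyma.08G118900 at 1.81, a call lost in 4 of 17 alternative fits, with an adjusted p of up to 0.11. OXS3, a stress tolerance factor, was higher at 3 of 4 loci, up to 3.75 at Glyma.08G032800, and 2 of these calls were lost in some alternative fits. Glyma.11G208700 had a change of 2.75, a call lost in 5 of 17 alternative fits, with an adjusted p of up to 0.0961, and Glyma.18G045200 one of 3.15, a call lost in 5 of 17 alternative fits, with an adjusted p of up to 0.0733. Of 4 loci of RBOHF, the NADPH oxidase that makes superoxide, Glyma.05G021100 was lower at -1.28, a call lost in 4 of 17 alternative fits, with an adjusted p of up to 0.0719, and the others were not called.

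Cytokinin response genes were called lower at 3 of 8 loci and higher at 0. That is 37.5% and 0%, beside 19.6% and 15.1% of all tested loci. The cytokinin receptor AHK4 (Glyma.08G049000) had 4.08, 6.08 and 7.36 CPM at R6, against 27, 17.6 and 25.4 CPM at V3 (log2 fold change -2.0, SE 0.28, edgeR adjusted p = 0.000191). AHK1 (Glyma.02G046600), a related histidine kinase that senses osmotic state in Arabidopsis, fell by 1.62. It was counted in this group although its name comes from the study's list of drought genes. ARR4, a response regulator induced by cytokinin, was lower at Glyma.06G114900 (-2.37) and not called at Glyma.11G155100 (1.17). Of 7 auxin response loci, 1 was called, IAA17 at Glyma.13G361200, an auxin-induced repressor that had 1.25, 0.559 and 1.12 CPM at R6, against 15.9, 30.1 and 44.6 CPM at V3 (log2 fold change -4.94, SE 0.62, edgeR adjusted p = 9.31e-05). The 5 ARF7 loci lay between -0.60 and 0.72.

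Among energy and stress kinases, 2 of 11 tested loci were higher and 1 lower. That is 18.2% and 9.09%, beside 15.1% and 19.6% of all tested loci. KIN10, the catalytic subunit of the SnRK1 kinase that responds to low energy, had 9.78, 8.71 and 9.47 CPM at R6, against 0.478, 0.901 and 0.556 CPM at V3 at Glyma.08G240400 (log2 fold change 3.84, SE 0.47, edgeR adjusted p = 7.28e-05), and at Glyma.13G060400 the change was -0.72, short of the fold limit. The hexose sensor hexokinase HXK1 was higher by 1.85 at Glyma.05G226600 and had a change of 0.84 at Glyma.08G033300. Without R6 replicate 2, 4 were called higher. CIPK9 at Glyma.16G020200 was lower at -2.30, a call lost in 3 of 17 alternative fits, with an adjusted p of up to 0.0557.

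Clock and light genes were called higher at 8 of 25 loci and lower at 10. At 24 of the 25 the R6 libraries lay wholly on one side of the V3 libraries, beside 60.2% of all tested loci. These genes cycle over the day, and a difference in the hour of sampling between stages cannot be told apart from a difference in age here. FKF1 (Glyma.05G239400), a blue light receptor of the flowering pathway, had 28, 41.2 and 38.6 CPM at R6, against 0.512, 1.26 and 0.376 CPM at V3 (log2 fold change 5.63, SE 0.52, edgeR adjusted p = 1.19e-05). PRR5, a clock repressor, fell at 4 of 5 loci and rose at 1. Glyma.07G049400 had 22, 17.2 and 18.1 CPM at R6, against 159, 142 and 169 CPM at V3, and Glyma.06G136600, the one that rose, had 62.3, 86.5 and 68.3 CPM at R6, against 1.86, 3.76 and 1.46 CPM at V3. The first fell (log2 fold change -3.04, SE 0.33, edgeR adjusted p = 3.2e-05) and the second rose (log2 fold change 4.93, SE 0.57, edgeR adjusted p = 4.86e-05). GRP7, a clock-controlled RNA-binding protein, was higher at all 3 of its loci, up to 3.93 at Glyma.11G117600. COL9 (Glyma.20G060400), a CONSTANS-like factor, was higher by 3.49, and ZTL (Glyma.09G056100), the F-box relative of FKF1, fell by 1.33.

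Phenylpropanoid genes numbered 4, and 3 were higher. Chalcone synthase (CHS), the first enzyme of flavonoid synthesis, had 31, 5.1 and 51.2 CPM at R6, against 0.137, 2.55 and 2.06 CPM at V3 at Glyma.08G109500, with R6 replicate 2 the lowest R6 library and V3 replicate 2 the highest V3 library (log2 fold change 4.19, SE 0.98, edgeR adjusted p = 0.00482). The second CHS locus, Glyma.01G228700, was higher by 3.47, and 4CL2 (Glyma.13G095600), which activates cinnamic acids for the pathway, by 1.49 (edgeR adjusted p = 0.0134, or 0.0504 without R6 replicate 1). IRX4 (Glyma.08G218100), a cinnamoyl-CoA reductase that leads to lignin, had 1.23, 1.24 and 1.19 CPM at R6, against 2.99, 3.35 and 3.32 CPM at V3 and fell (log2 fold change -1.40, SE 0.19, edgeR adjusted p = 0.000163). The 12 loci named FER, for a receptor kinase of cell growth, gave 1 call each way, and 8 of them that lie close together on chromosome 18 had log2 fold changes between -0.50 and 0.49 and were not called. TSO2, a ribonucleotide reductase subunit and the only name of DNA synthesis, was not called at either of its 2 loci.

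Most called loci have no name in the tables, and 2 of each direction are given by their identifiers, chosen as the called loci with the highest mean CPM at either stage among those whose stages did not overlap. Glyma.16G049000 had 453, 786 and 781 CPM at R6, against 4.56, 11.7 and 9.32 CPM at V3 (log2 fold change 6.30, SE 0.53, edgeR adjusted p = 6.09e-06). Glyma.15G011900 had 639, 223 and 777 CPM at R6, against 16.1, 107 and 83.1 CPM at V3 (log2 fold change 2.99, SE 0.71, edgeR adjusted p = 0.00506). Glyma.05G084600 had 54.6, 465 and 90 CPM at R6, against 19020, 1126 and 1413 CPM at V3, where V3 replicate 1 was far above the other V3 libraries (log2 fold change -5.15, SE 1.56, edgeR adjusted p = 0.0193). Without that library its change was -2.64 (edgeR adjusted p = 0.117), and the call was also lost without R6 replicate 1 or 3. Glyma.U016600, on an unplaced scaffold, had 1678, 2016 and 1529 CPM at R6, against 5704, 2672 and 3127 CPM at V3 (log2 fold change -1.14, SE 0.35, edgeR adjusted p = 0.0201). Its call was lost without the same 3 libraries, with -0.73 without V3 replicate 1 (edgeR adjusted p = 0.0823).

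The called loci were spread over the genome, with one region set apart by its count. Locus names follow the order of genes along each of the 20 chromosomes, and the tested loci were cut into 772 windows of 50 neighbours. A window held a median of 7 loci called higher and 10 called lower. The number called lower did not go above 21 in any window, while 8 windows held 25 or more called higher, 5 of them on chromosome 16. The fullest ran from Glyma.16G182500 to Glyma.16G189300, with 36 of 50 loci called higher and 5 lower. The 36 lie between Glyma.16G182700 and Glyma.16G188400, and their stages did not overlap at any of them, as at 5770 of the 5945 loci called higher. The log2 fold changes of the 36 ran from 1.59 to 4.59. Their levels were low, the median locus averaging 1.23 CPM at R6 and 0.165 CPM at V3, and the highest 22.6 CPM at R6. Neighbouring loci that are copies of each other could share reads, which was not tested. In GmNAC81-3, 6 of the 36 were called higher, and at 0 of the 36 did the difference between the stage changes of the genotypes have an adjusted p under 0.05 (edgeR). Over whole chromosomes, chromosome 16 had 22.3% of its tested loci called higher, against 13.4% to 16% on the other numbered chromosomes.

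**Figure D5:**
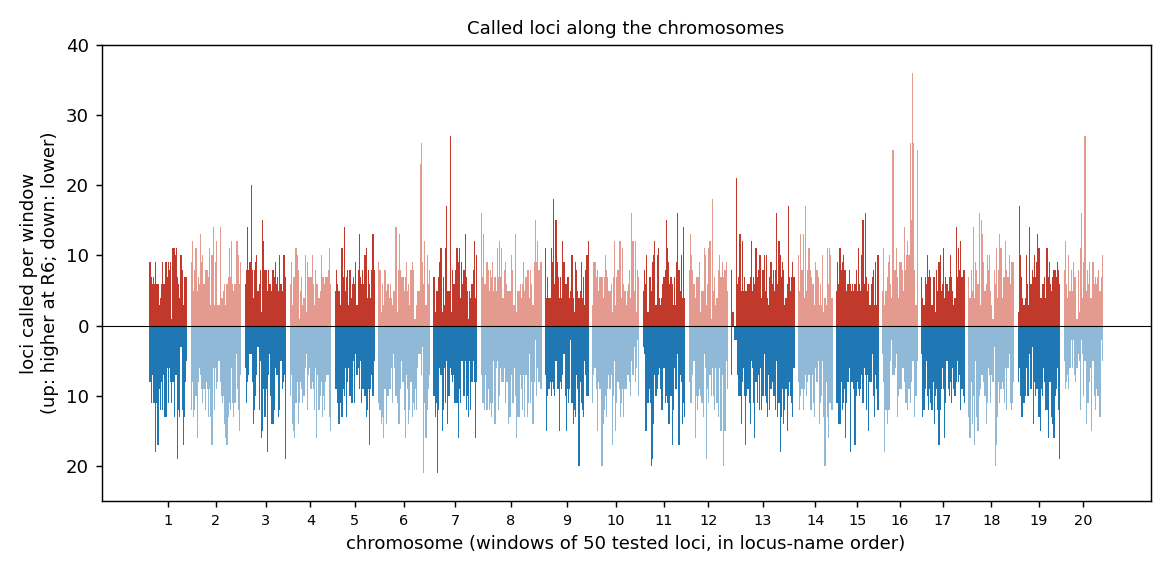
Number of loci called higher (red, upward) and called lower (blue, downward) at R6 in BR16 in each window of 50 neighbouring tested loci (vertical axis), windows in order along the 20 chromosomes (horizontal axis). The fullest window, with 36 called higher, lies on chromosome 16.

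The stage change in GmNAC81-3 is set beside that in BR16 as a count. Of the 13676 loci called in BR16, 10193 were also called in the same direction in GmNAC81-3, which is 74.5% of the BR16 calls and 70.7% of the 14410 GmNAC81-3 calls. Called in the opposite direction were 12. A test of the difference between both stage changes called 15 of the BR16 loci, beside 0.071% of all tested loci and 2279 of the 13676 at an unadjusted p under 0.05, and none of the named loci with a role passed it. That count ran from 1 to 116 when a library was left out and was 575 with DESeq2. GmNAC81 had a change of 2.72 in BR16 and of -0.82 (edgeR adjusted p = 0.3) in GmNAC81-3, the line with the 35S transgene. The difference of -3.54 (SE 0.895, edgeR adjusted p = 0.154) was not called, and its cause was not tested.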

How the data were processed

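The deposited values are raw counts per transcript model in 12 libraries, 3 of each genotype and stage, made by the authors from stranded TruSeq libraries read as pairs of 100 bp. Reads under a quality of 30 were removed with Sickle and mapped to Wm82.a2.v1. The submitters' notes name HISAT2 2.1.0 and featureCounts, and the Supplementary Methods name Bowtie 2 and Rsubread. Low counts were mostly even (75.0% to 78.4% at R6 and 81.0% to 82.1% at V3 of counts up to 50), so counts may overstate fragments.

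The 84782 models were summed to 52660 loci, with the terminator entry of the transgene added to Glyma.12G022700. In R 4.3.3, edgeR 4.0.16 was run with filterByExpr over 4 groups, TMM library sizes and group means of all 12 libraries. The quasi-likelihood test gave contrasts, p-values were adjusted after Benjamini-Hochberg over 39443 loci, and the SE is the log2 fold change divided by the root of F. CPM values use the TMM library sizes. Figures were drawn with matplotlib 3.10.9. Floors of 3 counts cover counting error only. Exact permutation of 3 libraries against 3 cannot give p below 0.1 and was not used.

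Alternatives were DESeq2 1.42.0, its size factors in edgeR, other filters and thresholds, the 6 BR16 libraries alone, the replicate number as a block, and each library left out. Libraries of the same number deviated together no more than those of different numbers, which cannot exclude a pairing. The labels state no pairing. The difference of stage changes under each alternative, and GmNAC81 without the terminator entry, were added after seeing the data.

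Members and lists were chosen with earlier results of these data known. Names come from the study's tables and text. The rule for named loci was first the loci of the study's text and of its examples, and the ERD15 locus. Then came in each list the called members with separate stages and at least 10 CPM at the highest and lowest fold changes. The most abundant member of each list was added. Further paralogues were named after their values were seen. No entry of the RefSeq table matched a Glyma locus, so lists by product name, cell type markers, promoters and sequences were not used here.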

Additional observations from a re-analysis of the deposited data

Results flagged for a closer look

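The stage change differed between the genotypes, by a test of the difference itself, at 15 of the loci called in BR16 (edgeR's quasi-likelihood test, adjusted p under 0.05 and a log2 difference beyond 1). None of the 15 has a name in the tables, and at 9 of them the GmNAC81-3 change was the smaller in size. At Glyma.06G293900 the change was -2.83 in BR16, against 3.38 in GmNAC81-3, with a difference of 6.20 (SE 0.39, edgeR adjusted p = 0.000124). The adjusted p of the other 14 lay between 0.0379 and 0.0497, and the number of such loci ran from 1 to 116 when a library was left out and was 575 with DESeq2.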

How the results depend on the processing

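With DESeq2, 6284 loci were higher and 8140 lower. With DESeq2's size factors in edgeR the counts were 5932 and 7737, without an expression filter 6062 and 8165, and with the 6 BR16 libraries alone 5911 and 7807. In the fits that each lacked 1 library, 5139 to 6226 loci were higher and 6820 to 8336 lower. Of the 13676 called loci, 10250 kept their call in every such fit. A minimum of 10 counts in every library, which tested 27372 loci, gave 3578 and 4596, and a log2 limit of 2 gave 3123 and 4774. An adjusted p of 0.01 gave 4465 and 6060.

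With a replicate block in the fit the counts were 5893 and 7443, with 13053 called loci kept. Correlations of deviations at the same number were -0.222, -0.299 and 0.063, and those at different numbers ran from -0.237 to 0.343. So few libraries cannot exclude a pairing, and the labels state none.

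The count of 15 loci at which the genotypes differed became 575 with DESeq2, 9 with its size factors, 4 with the replicate block, 1 at an adjusted p of 0.01, and 1 to 116 with a library left out. Without V3 replicate 2, KTI1 at Glyma.08G235400 turned to 2.67 (edgeR adjusted p = 0.00733), against a lowest value of -4.80 without V3 replicate 1, and SPI at Glyma.10G184600 to 6.41 (edgeR adjusted p = 0.0301), against a lowest value of -6.07 without R6 replicate 3. Of the called loci with a role, 111 kept their call in all 18 fits at the same thresholds that gave them a value, and 31 lost it in at least 1. The causes were not tested.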
